A study of Mus musculus with 5 samples.

Results

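Wnt2, Wnt9b and Rspo3 are 3 secreted signals of liver endothelium. They were followed together with the Wnt receptor Fzd4 and the co-receptor Lrp6, which makes 5 of the 31053 genes counted. Their levels were measured in endothelial barcodes of single-cell libraries from mouse liver. The receptors were also measured in hepatocytes, the cells that the ligands are known to act on.

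Wnt ligands are lipid-modified proteins that act over short distances by binding a Frizzled receptor together with Lrp5 or Lrp6. Binding holds back the destruction of beta-catenin, which then enters the nucleus with Tcf/Lef proteins and switches on target genes. R-spondins bind Lgr4 or Lgr5 and draw away the ubiquitin ligases Znrf3 and Rnf43, which otherwise remove Frizzled from the cell surface. In the liver, endothelial cells around the central vein are the best known source of these signals, and they keep hepatocytes there in a pericentral state.

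The series holds 5 libraries of C57BL/6J liver cells, 1 for each of 5 groups. The groups are postnatal day 14 (P14) without surgery, an adult control 8 weeks old, and adults 24, 48 and 96 h after partial hepatectomy (PHx), which removes most of the liver at 8 weeks of age. Cells were released by a 2-step perfusion and passed through dead-cell removal, and libraries were made with 10x v3 chemistry. Sex and the number of animals are not given. The labels contradict each other on the adult control: the protocol counts it among the operated samples, while its title and source call it a control and its record has no PHx tag. It is treated here as the control, and every ratio shares it. Its sample description also ends in another code than those of the other 4, so whatever that code stands for and control status cannot be told apart.

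Endothelial barcodes had at least 1000 UMIs (unique molecules), at least 500 genes and under 30% mitochondrial UMIs. They also had at least 3 of the 7 markers Stab2, Ptprb, Gpr182, Kdr, Egfl7, Clec4g and Oit3, no Ptprc, and Alb under 5% of UMIs. There were 39 such barcodes at P14, 79 in the control, 181 at 24 h, 66 at 48 h and 97 after 96 h, or 462 of the 104143 that passed the first 3 limits. All 7 markers were present in 16, 24, 56, 27 and 21 of them, in the same order. Exactly 3 were present in 5, 24, 44, 13 and 30. No endothelial barcode was shared between libraries. Hepatocytes were barcodes of at least 5000 UMIs with 10 to 30% mitochondrial UMIs, 5714 in all. They numbered 2108, 929, 1173, 728 and 776, in the same order. That rule set no limit for Alb or Ptprc. Alb was under 1% of UMIs in 2, 81, 242, 73 and 9 of them, and Ptprc was present in 39, 69, 25, 86 and 27. The part of these barcodes in the hepatocyte levels was not tested.

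Some barcodes in the endothelial set carried more than one cell type's RNA. In the adult libraries, 5, 13, 8 and 5 of them (control, 24 h, 48 h and 96 h) also met the hepatocyte rule, and these held 30.8%, 39.0%, 47.3% and 19.5% of the set's UMIs. At P14 none did, but the set held megakaryocyte or platelet markers at 2776 CPM (UMIs in each 1000000 non-mitochondrial UMIs), with 6 of 6 detected. Another 4 P14 barcodes held 3 or more markers of another class. Without these 4 the P14 set went from 330672 to 179380 non-mitochondrial UMIs, and P14 levels by the rule divide by the larger sum. Free RNA, estimated from empty droplets, amounted to 5.24% of the set's UMIs at P14, 36.7% in the control, 15.3% at 24 h, 3.64% at 48 h and 22.3% after 96 h. A narrowed set without barcodes that met the hepatocyte rule or held 3 or more markers of another class kept 412 barcodes (35, 70, 163, 54 and 90). It was defined after the data had been seen, and key values are given for both sets. In the narrowed set, the 8 hepatocyte markers summed to 11306 CPM at P14, 24989 in the control, 8839 at 24 h, 2558 at 48 h and 22469 after 96 h.

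The genes lie on 4 chromosomes of the mm10 build (GENCODE M21). Wnt2 spans chr6:17988940-18030585 on the minus strand with 5 exons (ENSMUSG00000010797). Wnt9b spans chr11:103727364-103749821, minus strand, with 4 exons (ENSMUSG00000018486). Rspo3 spans chr10:29452416-29535867, minus strand, with 5 exons (ENSMUSG00000019880). An antisense gene inside it, Gm48159, had 0 UMIs in the endothelial sets. Fzd4 spans chr7:89404355-89413134 on the plus strand with 2 exons (ENSMUSG00000049791), and Lrp6 spans chr6:134446476-134566965 on the minus strand with 23 (ENSMUSG00000030201).

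The start-site sequences of Wnt2 and Wnt9b, the pair found in the same barcodes, are printed to let the letters be compared. Each runs from 250 bases before to 50 after the RefSeq start (GRCm38.p6), 5′ to 3′ on the gene's own strand, and 3 of the 5 genes matched that table. Capitals mark a letter match, on either strand, to the core of ETS factors (GGAAG) or of KLF factors (CACCC).
Wnt2 promoter, chr6:18030396-18030695, minus strand: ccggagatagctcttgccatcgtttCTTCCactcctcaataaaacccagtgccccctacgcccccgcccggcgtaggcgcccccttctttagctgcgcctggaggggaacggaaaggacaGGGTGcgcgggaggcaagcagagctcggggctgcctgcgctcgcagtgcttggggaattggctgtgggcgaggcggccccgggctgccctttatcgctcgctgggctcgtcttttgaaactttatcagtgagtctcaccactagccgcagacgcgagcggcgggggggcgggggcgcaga
Wnt9b promoter, chr11:103749772-103750071, minus strand: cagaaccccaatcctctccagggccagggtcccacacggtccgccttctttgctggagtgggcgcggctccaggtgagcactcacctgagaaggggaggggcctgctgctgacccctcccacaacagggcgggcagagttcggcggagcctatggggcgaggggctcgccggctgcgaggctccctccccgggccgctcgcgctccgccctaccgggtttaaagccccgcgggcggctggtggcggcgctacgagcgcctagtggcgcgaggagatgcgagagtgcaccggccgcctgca
Fzd4 promoter, chr7:89404116-89404415, plus strand: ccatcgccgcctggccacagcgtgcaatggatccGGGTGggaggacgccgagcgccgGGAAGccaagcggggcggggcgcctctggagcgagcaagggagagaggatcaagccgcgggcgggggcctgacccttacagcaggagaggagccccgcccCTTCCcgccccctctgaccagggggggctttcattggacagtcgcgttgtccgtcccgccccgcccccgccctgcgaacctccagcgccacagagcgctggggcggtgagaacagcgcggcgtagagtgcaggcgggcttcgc
Wnt2 held 1 ETS and 1 KLF match, Fzd4 held 2 and 1, and Wnt9b held none. Over 32851 promoters of the same length, 71.4% held the ETS letters and 57.5% the KLF letters. None of the 3 held the GATA letters AGATAA (11.2% of promoters) or the TCF letters CTTTGA (16.0%). Other spellings of these cores were not searched, so a lack of sites cannot be read from this. All 3 were rich in G and C, at 65.7% for Wnt2, 71.7% for Wnt9b and 72.7% for Fzd4, against a median promoter of 52.7%.

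Wnt2 was the ligand found in the most endothelial barcodes in every library, and its level was highest 48 h after PHx. It stood at 275 CPM of non-mitochondrial UMIs at P14 (95% interval 222 to 338), 155 in the control (111 to 211), 378 at 24 h (333 to 427), 504 at 48 h (441 to 574) and 228 after 96 h (178 to 288). The intervals are exact Poisson limits and cover counting error only. With 1 library per group there is no replicate error and no test. The 24 h and 48 h levels lay above the control and the 96 h level beyond their intervals, and 48 h lay above 24 h. The control overlapped 96 h, 96 h overlapped P14, and P14 overlapped 24 h. At 48 h, 1 barcode held 32 of the 227 Wnt2 UMIs and the top 3 held 79. Without the top barcode of each, 48 h stood at 433 CPM and 24 h at 355, and no interval was computed. By depth class of the narrowed set, 48 h stood above 24 h at 1000 to under 2000 UMIs (940 against 243 CPM). It did so at 2000 to under 5000 UMIs (639 against 434) but not at 5000 to under 10000 (800 against 864).

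The ratio of Wnt2 to the control was 2.44 at 24 h (1.74 to 3.49), 3.25 at 48 h (2.31 to 4.67), 1.77 at P14 (1.21 to 2.64) and 1.47 at 96 h (0.986 to 2.23). In the narrowed set the ratios were 2.64 (1.87 to 3.80), 4.14 (2.93 to 5.98), 2.29 (1.56 to 3.43) and 1.13 (0.743 to 1.74), in the same order. The hepatocyte markers of the narrowed set, given above, were highest in the control and at 96 h, where Wnt2 was lowest. In the set by the rule they summed to 7255 CPM at P14, 35094 in the control, 27378 at 24 h, 24913 at 48 h and 25309 after 96 h, so 24 h, 48 h and 96 h lay close together. Their part in the Wnt2 ratios was not tested. The log2 ratio in the narrowed set was 1.40 at 24 h, 2.05 at 48 h and 0.18 after 96 h, and with free RNA taken off gene and total it became 0.78, 1.11 and -0.38. Per 1000 UMIs of 8 pan-endothelial genes that the rule did not use, Wnt2 stood at 101 at P14, 68.1 in the control, 125 at 24 h, 157 at 48 h and 75.9 after 96 h. The order of the libraries was the same on that scale, where the ratio to the control was 1.84 at 24 h (1.32 to 2.64) and 2.30 at 48 h (1.64 to 3.30). The P14 ratio rested on the limit for Alb: at under 1%, which left 18 P14 and 24 control barcodes, its log2 value was 0.011.

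Wnt9b, the other Wnt ligand, was found in fewer barcodes than Wnt2 and was highest 24 h after PHx. Its level was 45.4 CPM at P14 (25.4 to 74.8), 23.3 in the control (8.54 to 50.6), 123 at 24 h (98.3 to 152), 79.9 at 48 h (56.0 to 111) and 6.44 after 96 h (0.779 to 23.2). The 24 h and 48 h levels lay above the control and 96 h, with intervals that did not overlap, while neighbours in the order from 96 h through control, P14 and 48 h to 24 h overlapped. All 6 control UMIs came from 1 barcode, and the 96 h level rested on 2 UMIs. The ratio to the control was 5.29 at 24 h (2.33 to 14.8), 3.44 at 48 h (1.43 to 9.98), 1.95 at P14 (0.715 to 6.13) and 0.277 at 96 h (0.0273 to 1.55). Narrowing the set gave 5.92 at 24 h (2.61 to 16.6) and 4.48 at 48 h (1.87 to 13.0).

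Rspo3, the R-spondin of the set, was highest at P14 and lowest in the control, and most of its UMIs lay in few barcodes. It stood at 390 CPM at P14 (326 to 464), 58.2 in the control (32.6 to 95.9), 236 at 24 h (201 to 275), 127 at 48 h (95.9 to 164) and 145 after 96 h (106 to 194). P14 lay above 24 h, and 24 h above 96 h and 48 h, without overlap. The 96 h and 48 h intervals overlapped each other, and those of 48 h and the control met. The ratio to the control was 6.71 at P14 (3.92 to 12.3), 4.06 at 24 h (2.39 to 7.42), 2.18 at 48 h (1.22 to 4.14) and 2.49 after 96 h (1.36 to 4.81). Over the narrowed set the ratio was 9.19 at P14 (5.28 to 17.3) and 4.53 at 24 h (2.62 to 8.49).

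Those Rspo3 intervals treat each UMI as independent, but single barcodes held much of the sum. The top barcode held 70 of 129 UMIs at P14, 14 of 15 in the control, 39 of 163 at 24 h, 19 of 57 at 48 h and 31 of 45 after 96 h. Without it the level was 178 CPM at P14, 3.88 in the control (1 UMI), 180 at 24 h, 84.4 at 48 h and 45.0 after 96 h. The control was the lowest with and without that barcode. The lead of P14 over 24 h did not remain without it. At P14, 3 barcodes held 127 of the 129 UMIs.

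Fzd4, a Frizzled receptor of endothelial cells that also binds norrin, followed an order close to that of Wnt2. Its endothelial level was 133 CPM at P14 (96.7 to 179), 112 in the control (75.3 to 162), 237 at 24 h (202 to 277), 253 at 48 h (209 to 304) and 164 after 96 h (122 to 216). The 24 h and 48 h levels lay above P14 and the control without overlap, and 96 h overlapped both neighbours. The ratio to the control was 2.11 at 24 h (1.42 to 3.25), 2.25 at 48 h (1.49 to 3.51), 1.18 at P14 (0.724 to 1.96) and 1.46 at 96 h (0.908 to 2.39). Narrowing the set gave 2.61 at 24 h (1.69 to 4.20) and 3.27 at 48 h (2.08 to 5.33). With free RNA also taken off gene and total in that set, Fzd4 was under 2-fold at 24 h and at 48 h. The P14 value moved from a log2 ratio of 0.24 to -0.87 with Alb under 1% and to 1.72 when each barcode had equal weight.

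Lrp6, the co-receptor, showed no such order in endothelial barcodes. It stood at 81.7 CPM at P14 (53.8 to 119), 109 in the control (72.1 to 157), 75.3 at 24 h (56.2 to 98.7), 97.7 at 48 h (71.0 to 131) and 93.3 after 96 h (62.5 to 134). All 5 intervals overlapped. Ratios to the control ran from 0.693 at 24 h (0.430 to 1.14) to 0.900 at 48 h (0.548 to 1.50), and each of the 4 ratio intervals took in 1 and stayed below 2. Per pan-endothelial UMIs the 24 h ratio was 0.524 (0.325 to 0.862), an interval below 1.

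**Figure D1:**
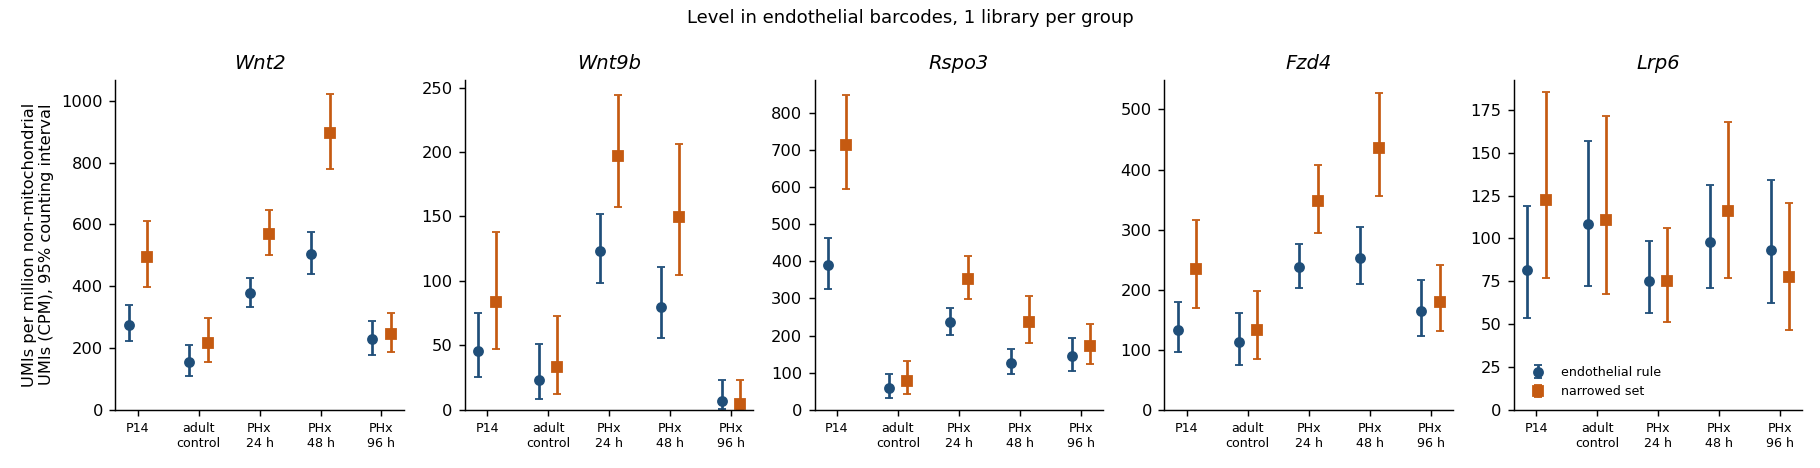
CPM of non-mitochondrial UMIs (y axis) of the 5 genes in endothelial barcodes of each library (x axis, 1 library per group), for the set by the rule (circles) and the narrowed set (squares), with bars for exact 95% counting intervals. Wnt2 peaks at 48 h (504 CPM in the set by the rule), Wnt9b at 24 h (123) and Rspo3 at P14 (390), while the Lrp6 intervals overlap throughout.

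A gene was counted as higher or lower where its CPM ratio to the control was at least 2 or at most 0.5 and the pair of libraries held at least 20 of its UMIs. At 24 h, 4 of the 5 genes were higher by that rule (all but Lrp6), where 13.6% of the 6813 genes tested were higher and 8.97% lower. The same 4 were higher at 48 h, where 11.6% of 5775 genes were higher and 10.0% lower. At P14 Rspo3 alone of the 5 was higher, against 25.8% of 5518 genes higher and 17.4% lower. At 96 h Rspo3 was again the one gene of the 4 tested that was higher, against 10.1% of 5057 genes higher and 9.51% lower. Wnt9b fell under the minimum there. No member with enough UMIs was lower in any of the 4 comparisons. In the narrowed set Wnt2 (2.29) and Wnt9b (2.51, 0.921 to 7.90) also passed 2-fold at P14, so that 3 of the 5 did. There 18.4% of 3855 genes were higher and 15.4% lower. The top barcode held 29 of the 89 Wnt2 UMIs at P14. Without it the Wnt2 level went from 496 to 334 CPM, against 216 in the control, which is under 2-fold. The P14 value of Wnt9b rested on 15 UMIs in 4 barcodes, and without the top barcode, which held 8, its level went from 83.6 to 39.0 CPM, against 33.3 in the control. Some of these calls depended on the scale and the set of barcodes. Over 14 alternatives, Wnt9b stayed at least 2-fold higher in 14 at 24 h and in 14 at 48 h, Wnt2 in 11 at 24 h and 14 at 48 h, and Rspo3 in 14 at P14, 14 at 24 h, 9 at 48 h and 10 at 96 h. Fzd4 did so in 8 at 24 h and 9 at 48 h. With free RNA taken off gene and total in the narrowed set, Wnt2 was under 2-fold at 24 h, Fzd4 at 24 h and 48 h, and Rspo3 at 48 h and 96 h. Per pan-endothelial UMIs, 2 of the 5 genes passed 2-fold at 24 h (Wnt9b and Rspo3) and 2 at 48 h (Wnt2 and Wnt9b). The share of all genes past 2-fold on that scale is not given here. On that scale Fzd4 stood at a ratio of 1.60 at 24 h (1.07 to 2.46) and 1.59 at 48 h (1.05 to 2.48), and Rspo3 at 1.54 at 48 h (0.860 to 2.93). The median log2 ratio of all genes tested was 0.25 at P14, 0.11 at 24 h, 0.09 at 48 h and 0.13 after 96 h.

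The ligands were rare outside endothelial barcodes in the larger classes measured. Wnt2 was detected in 180 of 462 endothelial barcodes (39.0%), in 21 of 5714 hepatocytes (0.368%), in 4 of 1713 T or NK barcodes (0.234%), and in 1 of 30 stellate barcodes. Hepatocytes were many times deeper, with median UMIs per library of 18557 to 38913 against 1811 to 3529 in endothelial barcodes and 4595 to 7601 in T or NK. The 24 Wnt2 UMIs in hepatocytes compare with 8.15 that free RNA alone would give there. Some hepatocyte barcodes were also in the endothelial set: at 24 h, 13 such barcodes held 2 of the 4 Wnt2 UMIs. Wnt9b was detected in 46 endothelial barcodes (9.96%), in 8 hepatocytes, in 1 of 912 neutrophils and in 0 of 1713 T or NK barcodes (up to 0.175%). Rspo3 was detected in 53 endothelial barcodes (11.5%), 10 hepatocytes, 2 T or NK, 5 neutrophils, and 3 of 30 stellate barcodes, a class too small to give a level.

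Fzd4 and Lrp6 were also found in hepatocytes. The shares below are not at equal depth, and hepatocytes were the deeper class. By CPM over the libraries, Fzd4 ran from 112 to 253 in endothelial barcodes and from 5.69 to 30.6 in hepatocytes. Lrp6 ran from 75.3 to 109 and from 45.8 to 76.9. Fzd4 was detected in 151 endothelial barcodes (32.7%), 1420 hepatocytes (24.9%), 58 of 912 neutrophils (6.36%) and 33 T or NK barcodes (1.93%), and 29 of those 33 came from the adult control. Lrp6 was detected in 123 endothelial barcodes (26.6%), 3628 hepatocytes (63.5%), 284 of 912 neutrophils (31.1%), 25 of 107 macrophage or monocyte barcodes (23.4%), 72 of 306 plasmacytoid dendritic barcodes (23.5%) and 260 T or NK barcodes (15.2%). Free RNA alone would give 27.3 of the 36 Fzd4 UMIs in T or NK barcodes and 2.99 of the 65 in neutrophils. For Lrp6 it would give 78.1 of the 293 UMIs in T or NK barcodes and 13.4 of the 556 in neutrophils.

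Detection rose with depth, so shares were set side by side at equal depth. Thinned to 2000 UMIs, which left out 13, 42, 91, 23 and 51 shallower barcodes, Wnt2 was detected in 9 of 26 barcodes at P14 (34.6%), 10 of 37 in the control (27.0%), 43 of 90 at 24 h (47.8%), 23 of 43 at 48 h (53.5%) and 14 of 46 after 96 h (30.4%). The unthinned shares were 38.5%, 21.5%, 44.2%, 63.6% and 26.8%. The exact binomial intervals at 2000 UMIs were 13.8 to 44.1% in the control, 37.1 to 58.6% at 24 h and 37.7 to 68.8% at 48 h, so neither later share was separated from the control. The order of the 5 libraries was that of the CPM. Thinned to 5000 UMIs it was not: the shares were 69.2% at P14 (9 of 13), 41.2% in the control, 65.1% at 24 h, 65.5% at 48 h and 47.4% after 96 h.

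For Wnt9b the thinned shares were 11.5% at P14, 2.70% in the control, 17.8% at 24 h and 16.3% at 48 h, and 0 of 46 barcodes after 96 h, which allows a share of up to 6.52% by the limit of 3 counts (7.71% by the exact binomial interval). For Rspo3 they were 15.4%, 2.70%, 18.9%, 16.3% and 6.52%. Both genes were thus found in 1 of 37 control barcodes, against 16 and 17 of 90 at 24 h. Rspo3 at P14, which had the highest level, had no higher share than 24 h or 48 h. Thinned shares of Fzd4 were 38.5%, 24.3%, 45.6%, 44.2% and 28.3%, and those of Lrp6 were 26.9%, 13.5%, 15.6%, 23.3% and 6.52%.

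Within depth classes of the narrowed set, Wnt9b and Rspo3 were in many deep barcodes at 24 h and in none of the control. In barcodes of 5000 to under 10000 UMIs, Wnt2 was detected in 4 of 4 at P14, 6 of 11 in the control, 25 of 27 at 24 h, 12 of 13 at 48 h and 7 of 9 after 96 h. Wnt9b was detected in 1, 0, 18, 4 and 1 of the same barcodes, and Rspo3 in 0, 0, 13, 2 and 3, where 0 of 11 control barcodes allow a share of up to 27.3%. The exact intervals were 46.0 to 83.5% for Wnt9b and 28.7 to 68.1% for Rspo3 at 24 h, against 0 to 28.5% for each in the control, so those for Rspo3 nearly met. Over the set by the rule thinned to 5000 UMIs they overlapped for Rspo3, at 17.2 to 46.1% against 0 to 19.5%. Fzd4 was found in most of them in every library, in 3, 8, 23, 11 and 7. In the same class the Wnt2 level was 544 CPM at P14, 333 in the control, 864 at 24 h, 800 at 48 h and 553 after 96 h. In barcodes of 1000 to under 2000 UMIs, Wnt2 was detected in 2 of 13, 4 of 39, 23 of 91, 13 of 22 and 4 of 51, and Rspo3 in 0, 0, 7, 1 and 1. Control barcodes of that depth were close to empty droplets, which averaged 1328 UMIs in that library: 13 of the 39 had no more UMIs than the deepest of its empty droplets, against 0 in the same class of the other 4 libraries. Free RNA amounted to 85.7% of the UMIs of this class in the control, 58.8% after 96 h, 49.0% at 24 h, 30.8% at P14 and 21.4% at 48 h. With those 13 barcodes left out of the set by the rule, the log2 ratio at 24 h was 1.22 for Wnt2, 2.30 for Wnt9b, 1.92 for Rspo3 and 0.98 for Fzd4, which is under 2-fold.

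Barcodes of 10000 UMIs or more were found in 3 libraries of the narrowed set. Wnt2 was detected in 6 of 6 at P14, 7 of 7 at 48 h and 1 of 4 after 96 h. Wnt9b was in 3, 5 and 0 of them, and Rspo3 also in 3, 5 and 0. The 0 of 4 barcodes after 96 h allow a share of up to 75.0% for each gene by the limit of 3 counts, and in the set by the rule 1 of 9 held Wnt9b and 1 held Rspo3. In that set, 13 barcodes at 24 h passed 10000 UMIs, all 13 also met the hepatocyte rule, and 1 held Wnt2.

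**Figure D2:**
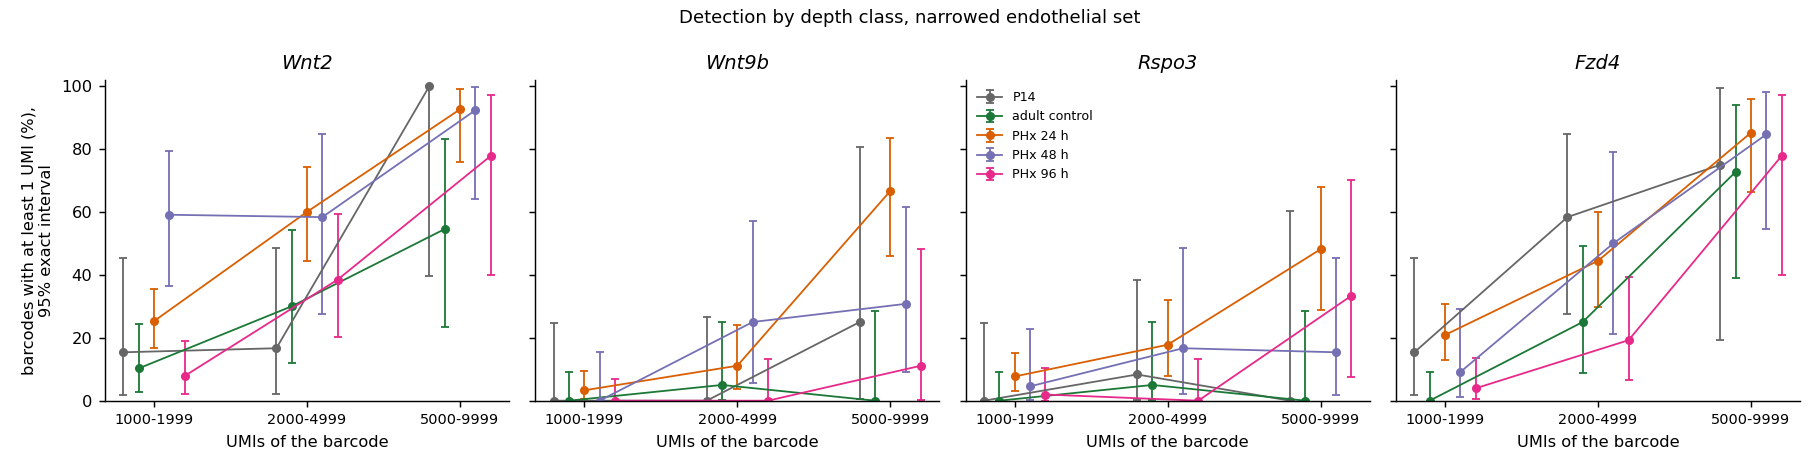
Share of narrowed-set endothelial barcodes with at least 1 UMI (y axis, percent) of Wnt2, Wnt9b, Rspo3 and Fzd4 by the barcode's depth class (x axis, UMIs), 1 line per library with exact 95% binomial intervals. Shares climb with depth in most lines, and at 5000 to under 10000 UMIs Wnt9b was found in 18 of 27 barcodes at 24 h and 0 of 11 in the control.

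The 3 signals were found in the same barcodes. Of the 462 endothelial barcodes, 185 held at least 1 of them, 120 held exactly 1, 36 held 2 and 29 held all 3. All 3 were present in 3 of 39 barcodes at P14, 1 of 79 in the control, 17 of 181 at 24 h, 7 of 66 at 48 h and 1 of 97 after 96 h. Wnt2 was detected in 45 of the 46 barcodes with Wnt9b and in 135 of the 416 without it. It was also in 49 of the 53 with Rspo3 and in 131 of the 409 without it. Wnt9b was in 29 of the 53 with Rspo3 and in 17 of the 409 without it.

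Depth is shared by the genes of a barcode, so the same counts were taken after thinning to 2000 UMIs. At 24 h, Wnt2 was in 14 of 16 barcodes with Wnt9b and 29 of 74 without, and in 16 of 17 with Rspo3 and 27 of 73 without. At 48 h it was in 7 of 7 with Wnt9b and 16 of 36 without, and in 6 of 7 with Rspo3 and 17 of 36 without. These counts cover the set by the rule, where 13 barcodes at 24 h also met the hepatocyte rule. Before thinning, 1 of the 13 held Wnt2 and 0 held Wnt9b. At 24 h the exact intervals were apart in that set. They were 61.7 to 98.4% with Wnt9b against 28.0 to 51.2% without, and 71.3 to 99.9% with Rspo3 against 26.0 to 49.1% without. At 48 h the intervals overlapped, at 59.0 to 100% against 27.9 to 61.9% for Wnt9b, and 42.1 to 99.6% against 30.4 to 64.5% for Rspo3. P14, the control and 96 h had at most 4 barcodes with Wnt9b or with Rspo3 after thinning. Among the 27 barcodes of 5000 to under 10000 UMIs at 24 h in the narrowed set, 6 held 1 of the 3 signals, 7 held 2 and 12 held all 3.

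Of the 180 barcodes with Wnt2, 29 held both others and 115 held neither. Wnt2 was detected in far more barcodes than the others, so by these totals alone Wnt9b could not be detected in most barcodes with Wnt2. In shallow barcodes a gene that is present can go undetected. Among the 25 barcodes with Wnt2 of 5000 to under 10000 UMIs at 24 h in the narrowed set, 18 also held Wnt9b and 6 held Wnt2 alone. Fzd4 overlapped Wnt2 less closely: Wnt2 was in 95 of 151 barcodes with Fzd4 and in 85 of 311 without it.

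**Figure D3:**
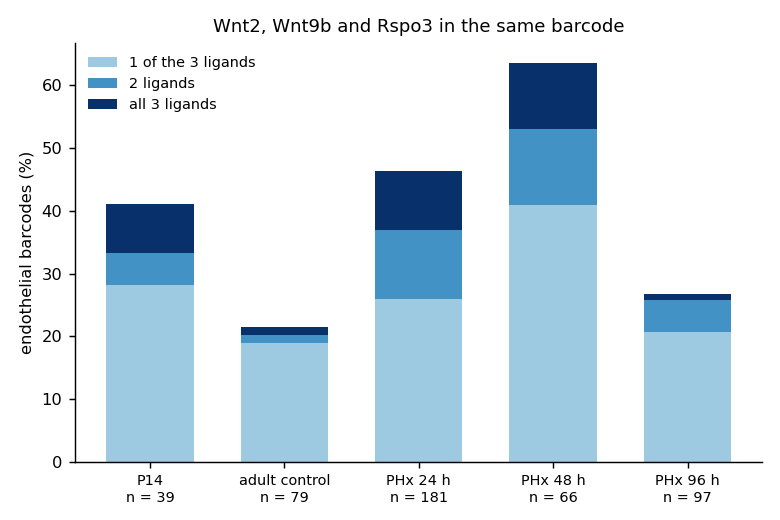
Share of endothelial barcodes (y axis, percent) holding exactly 1, 2 or all 3 of Wnt2, Wnt9b and Rspo3, stacked, for each library (x axis, number of barcodes under each bar), without thinning. All 3 were found together in 17 of 181 barcodes at 24 h and 7 of 66 at 48 h, and in 1 barcode each in the control and after 96 h.

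Genes whose detection was most like that of a ligand were ranked by a Mantel-Haenszel odds ratio over 20 library and depth strata, over the 462 barcodes, as a description without a test. Eligible genes were detected in at least 3% of barcodes and together with the ligand in at least 10. For Wnt2, Wnt9b had rank 2 of 8766 genes (odds ratio 50.2) and Rspo3 rank 7 (21.8). The others of the top 8 were Lmcd1 (58.8), Ifitm10, Il17rd, Tceal1, Lhx6 (23.7, detected with Wnt2 in 71 of 76 barcodes) and Prag1. Lhx6 is a LIM-homeobox transcription factor. For Rspo3 the top 8 of 5400 genes were Wnt2, Prrg3, Thbd (16.7), Wnt9b (15.4), Lhx6 (14.5), Slco3a1, Syt7 and Plvap (9.30). Thbd encodes thrombomodulin, and Plvap is a protein of endothelial pores and vesicles. For Wnt9b, Wnt2 had rank 1 and Rspo3 rank 2 of 5153 genes, followed by S100a16, Ift52, Slco3a1, Rpl34, Ramp2 and E4f1.

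The ranks of rarely detected genes moved with the set of barcodes. In the narrowed set Wnt9b had rank 6 for Wnt2 (31.6), Rspo3 went to rank 20 (13.5) and Lhx6 left the top 8. For Rspo3, Wnt9b and Wnt2 had ranks 1 and 2 there (14.7 and 13.5), and Lhx6 had rank 5 (11.7). On the set by the rule, the odds ratio with Wnt2 was 3.12 for Kit, 4.12 for Thbd, 3.56 for Ptgs1, 5.73 for Selp, 3.27 for Cdh13 and 2.09 for Fabp4, all listed as endothelial genes of the central side. The sinusoidal genes Stab2 and Lyve1, on neither list, stood at 2.92 and 1.62. Stab2 is 1 of the 7 markers of the rule, so its detection also depends on how the barcodes were chosen. For genes listed for the portal side it was 0.784 for Efnb2, 0.831 for Dll4, 0.591 for Msr1, 0.880 for Ntn4 and 1.09 for Ltbp4. With Rspo3, portal genes ran from 0.312 for Dll4 to 1.12 for Ntn4, and with Wnt9b from 0.210 for Dll4 (found with it in 2 barcodes) to 1.75 for Ntn4. Over the narrowed set the same 5 genes ran from 0.427 to 0.973 with Wnt2 and from 0.0294 to 0.854 with Rspo3, while Ntn4 stood at 1.43 with Wnt9b. The central genes there stood with Wnt2 at 2.75 for Kit, 3.54 for Thbd, 2.87 for Ptgs1, 11.5 for Selp, 2.67 for Cdh13 and 1.68 for Fabp4. Stab2 stood at 2.63 and Lyve1 at 1.34, so Kit, Ptgs1 and Cdh13 lay close to Stab2 and Fabp4 below it.

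The list of central-side endothelial genes holds 11 genes, Wnt2, Wnt9b and Rspo3 among them, and was drawn up with earlier results of these data known. At 24 h, 7 of 11 were at least 2-fold higher than in the control and 0 lower, with a median log2 ratio of 1.28, beside 13.6% of all genes higher. At 48 h the same 7 names of 9 tested were higher (median 1.70, beside 11.6% of all genes): the 3 signals with Kit, Thbd, Ptgs1 and Lhx6. At P14, 5 of 10 were higher (Rspo3, Ptgs1, Lhx6, Fabp4 and Vwf, beside 25.8%), and at 96 h 4 of 8 (Rspo3, Kit, Fabp4 and Vwf, median 0.90, beside 10.1%). Over the narrowed set 7 of 10 were higher at P14, where 18.4% of all genes were higher and 15.4% lower. At 24 h 8 of 11 were higher (17.0% of all genes higher, 10.9% lower), at 48 h 8 of 9 (20.5% and 14.9%), and at 96 h 3 of 8 (7.98% and 10.7%). At 48 h in that set, 4 of 10 pan-endothelial genes were higher (Cdh5, Kdr, Tek and Flt1, median log2 ratio 0.93), beside 20.5% of all genes. Of the sinusoidal genes, 3 of 11 were higher (Gata4, Maf and Flt4, median 0.47). At 24 h the counts were 2 of 10 and 1 of 11, beside 17.0% of all genes. Kdr is 1 of the 7 markers of the rule, and these lists also hold Ptprb, Stab2, Clec4g and Oit3. The levels of those markers are not independent of the choice of barcodes.

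Thbd, the thrombin receptor that turns thrombin towards anticoagulation, had the largest level change at 24 h among these genes with at least 20 control UMIs. It stood at 151 CPM at P14, 174 in the control, 2098 at 24 h, 679 at 48 h and 177 after 96 h, a ratio of 12.0 at 24 h (8.94 to 16.6). P14, the control and 96 h lay close together, with 48 h between them and 24 h. Kit, a receptor tyrosine kinase, was at 178, 124, 572, 557 and 277 CPM, and so was high at both 24 h and 48 h. Lhx6 was at 69.6, 7.76, 156, 151 and 35.4 CPM, and its control level rested on 2 UMIs (ratio 20.2 at 24 h, 5.45 to 169). Fabp4, a fatty acid carrier, differed in order, with 2035 CPM at P14, 593 in the control, 1170 at 24 h, 1072 at 48 h and 1715 after 96 h.

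The portal-side list of 10 genes went the other way at 24 h and 48 h in the set by the rule. At 24 h, 0 of 8 tested were higher and 5 lower (Efnb2, Dll4, Ltbp4, Ntn4 and Mecom, median log2 ratio -1.47), beside 8.97% of all genes lower. At 48 h, 5 of 7 were lower (Efnb2, Dll4, Ltbp4, Ntn4 and Sox17, median -1.39), beside 10.0%. At 96 h 2 of 9 were higher (Adgrg6 and Sox17) and 0 lower, beside 10.1% of all genes higher and 9.51% lower, and at P14 4 of 8 were lower, beside 17.4%. Ltbp4, a matrix protein that binds latent TGF-beta, stood at 281 CPM at P14, 411 in the control, 123 at 24 h, 51.1 at 48 h and 225 after 96 h. Efnb2, the arterial ephrin, stood at 48.4, 69.8, 13.0, 26.6 and 93.3 CPM. With the narrowed set, 4 of 8 portal genes were lower and 1 (Sox17) higher at 24 h (10.9% of all genes lower, 17.0% higher), and 2 of 7 were lower at 48 h (14.9%). At 96 h 2 of 9 were higher (Adgrg6 and Sox17) and 2 lower (Ltbp4 and Ntn4), beside 7.98% and 10.7%, and at P14 3 of 8 were lower (Ntn4, Msr1 and Efnb1), beside 15.4%. A change in the mix of central and portal endothelial cells and a change of level within each cannot be told apart from these sums.

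**Figure D4:**
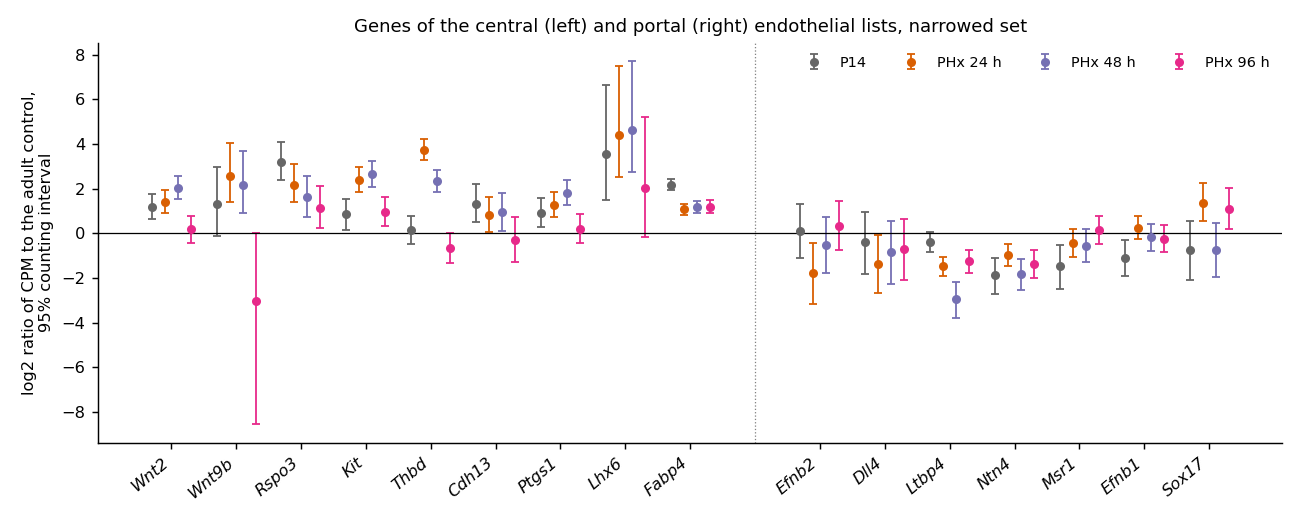
Log2 ratio of CPM to the adult control (y axis) for chosen genes of the central-side list (left of the dotted line) and the portal-side list (right) in the narrowed set, 1 point per library with its 95% counting interval. Vwf, Mecom and Adgrg6, each past 2-fold in at least 1 comparison, are among the genes not drawn. At 24 h and 48 h 8 central genes lie at or above a log2 ratio of 1, and Ltbp4 and Ntn4 lie at or below 0 at all 4 points.

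The summed level of early-response genes of tissue dissociation had the same order of libraries as Wnt2, but not as Wnt9b or Rspo3. Of the 20 genes listed, 5 of 17 tested were higher at 24 h (1 lower), 11 of 15 at 48 h, 2 of 14 at P14 and 1 of 13 at 96 h, in the set by the rule. The shares of all genes higher were 13.6%, 11.6%, 25.8% and 10.1% in the same order, so the P14 and 96 h counts were no larger than the background. Their summed level was 2522 CPM at P14, 1745 in the control, 3135 at 24 h, 3333 at 48 h and 2008 after 96 h. Stellate markers summed to 263, 194, 243, 198 and 171 CPM, with 8 to 9 of 12 detected and Col1a2 at 0 in each library. Neutrophil markers summed to 6.05, 7.76, 140, 160 and 16.1 CPM, with 2, 2, 5, 7 and 2 of 9 detected and Csf3r at 0 in each library, and in the narrowed set to 11.1, 0, 178, 137 and 20.4 CPM. Neutrophil markers were thus above the control at 24 h and 48 h, as the ligand levels were. Plasmacytoid dendritic markers summed to 118, 31.0, 133, 111 and 83.7 CPM, with 2 to 3 of 8 detected and Siglech at 0 in each library. Macrophage or monocyte markers summed to 157, 62.0, 361, 322 and 96.5 CPM, with Csf1r at 0 in all libraries but the control. The plasmacytoid dendritic and the macrophage or monocyte sums were above the control in every other library. The part of dissociation and of these cells in the ligand levels was not tested. Of 18 proliferation genes, none reached the UMI minimum at 24 h, when Wnt9b peaked, so each had under 20 UMIs in the control. Elsewhere they could be tested only with UMIs of the other library, and 1 at P14, 7 at 48 h and 10 after 96 h stayed under the minimum. Of those tested, 17 of 17 were higher at P14, 11 of 11 at 48 h and 8 of 8 after 96 h, counts that the minimum itself favours.

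Few other genes of the pathway reached the minimum in endothelial barcodes. Of the 19 Wnt ligands, Wnt2 and Wnt9b were the ones tested, and of the 4 R-spondins, Rspo3. Wls, which carries Wnts to the cell surface, stood at 99.8 CPM at P14, 85.3 in the control, 133 at 24 h, 127 at 48 h and 125 after 96 h, and passed 2-fold at no point. Of 20 receptor genes, 5 or 6 were tested in each comparison. Fzd4 was the one that was higher, 1 of 6 at 24 h and 1 of 6 at 48 h, beside 13.6% and 11.6% of all genes. Tspan12, a tetraspanin partner of Fzd4, was lower at P14, 1 of 5 beside 17.4% of all genes, with 27.2 CPM against 147 in the control (ratio 0.185, 0.0785 to 0.389). It stood at 120 CPM at 24 h, 104 at 48 h and 148 after 96 h. Free RNA alone would give 25.7 of its 38 UMIs in the control and 2.16 of 9 at P14. With free RNA taken off the gene but not off the total, the ratio was 0.434 at P14, 2.16 at 24 h, 2.12 at 48 h and 2.44 at 96 h. Free RNA was 36.7% of the set's UMIs in the control, the largest share of the libraries, so the uncorrected totals raised these ratios. This alternative was chosen after the data were seen. The 3 PHx values passed 2-fold higher on it, while P14 was lower under both. A ratio with gene and total both corrected is not given for Tspan12.

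The other endothelial receptors tested did not pass 2-fold in the set by the rule. Lgr4, tested at 24 h and 48 h, held 10 UMIs in the control, 17 at 24 h and 15 at 48 h. Free RNA alone would give 9.62, 2.08 and 0.386 of these. With free RNA taken off the gene alone, its ratio was 14.6 at 24 h and 21.9 at 48 h, on 0.382 control UMIs. Lrp5, the other co-receptor, was at 45.4, 73.7, 94.1, 88.8 and 41.8 CPM from P14 to 96 h, a ratio of 0.568 at 96 h (0.258 to 1.21). Narrowing the set took that ratio to 0.475 (0.201 to 1.08), past 2-fold lower. Ryk, a receptor kinase for Wnts, was at 63.5, 73.7, 66.6, 86.6 and 70.8 CPM. None of the 17 brakes at the receptor reached the minimum. Of the 18 genes of the intracellular relay, Dvl1, which passes the signal on from Frizzled, was higher at 24 h. It was 1 of 9 tested, beside 13.6% of all genes, and rested on 3 control UMIs. No other relay gene passed 2-fold in any comparison of the set by the rule. With free RNA taken off the gene alone, Gsk3b stood at a ratio of 2.14 at P14 and 2.22 at 48 h, and Ctnnb1 at 2.01 at 96 h. In the narrowed set Dvl1 fell under the minimum and Tcf7l1, a DNA-binding partner of beta-catenin, was higher at 48 h (ratio 2.18, 1.10 to 4.61). Ctnnb1, which encodes beta-catenin, stood at 269, 229, 167, 200 and 341 CPM.

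In hepatocytes, Fzd4 was lower in every library than in the control. It stood at 14.1 CPM at P14 (13.2 to 15.1), 30.6 in the control (27.7 to 33.7), 6.80 at 24 h (5.69 to 8.06), 5.69 at 48 h (4.72 to 6.81) and 14.4 after 96 h (12.4 to 16.6). The control lay above all 4, and P14 and 96 h lay above 24 h and 48 h, without overlap. The ratio was 0.461 at P14 (0.409 to 0.519), 0.222 at 24 h (0.181 to 0.271), 0.186 at 48 h (0.150 to 0.229) and 0.470 after 96 h (0.394 to 0.559). Fzd4 was thus at least 2-fold lower in each comparison, where 15.9% of 12556 genes were lower at P14, 10.1% of 11357 at 24 h, 9.26% of 11636 at 48 h and 3.61% of 11184 at 96 h. With TMM scaling, which raised every P14 log2 ratio by 0.35, the P14 value went from -1.12 to -0.77, which is under 2-fold. The same scaling moved the share of calls that were higher at P14 from 48.0% to 67.9%.

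At equal depth the control again had the highest share, and 24 h and 48 h the lowest. Thinned to 5000 UMIs, Fzd4 was detected in 5.69% of hepatocytes at P14, 10.8% in the control, 2.05% at 24 h, 2.61% at 48 h and 4.90% after 96 h. In T or NK barcodes thinned alike it was in 2.03% in the control (11 of 541) and in 0 of 72, 0 of 94, 0 of 323 and 0 of 149 in the others. The 0 of 94 T or NK barcodes at 24 h allow a share of up to 3.19% by the limit of 3 counts, which the hepatocyte share at 24 h did not exceed. At the other points with 0 the hepatocyte share exceeded that limit, which was 4.17% at P14, 0.929% at 48 h and 2.01% after 96 h. Free RNA would give 33.8 of the 410 Fzd4 UMIs of control hepatocytes and 2.55 of the 133 at 24 h.

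Lrp6 in hepatocytes differed less. It stood at 45.8 CPM at P14 (44.1 to 47.4), 76.9 in the control (72.2 to 81.7), 51.0 at 24 h (47.9 to 54.3), 47.7 at 48 h (44.7 to 50.7) and 60.6 after 96 h (56.6 to 64.9). The control lay above the rest without overlap, and 96 h lay between. Ratios were 0.595, 0.664, 0.620 and 0.789 in the order P14, 24 h, 48 h and 96 h, so no comparison reached 2-fold. Lgr4, the R-spondin receptor, was also highest in the control and next at 96 h, with 46.1, 87.8, 49.6, 54.4 and 74.5 CPM.

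Another 3 Frizzled genes were at least 2-fold lower at 24 h and 48 h. Fzd7 stood at 4.03 CPM at P14, 31.4 in the control, 6.34 at 24 h, 4.83 at 48 h and 8.61 after 96 h, with a ratio of 0.202 at 24 h (0.164 to 0.247). Fzd8 stood at 22.7, 20.1, 2.51, 2.82 and 13.1 CPM, and so was low at 24 h and 48 h (ratio 0.125 at 24 h, 0.0900 to 0.170) but not at P14. Fzd5 stood at 3.82, 12.5, 4.30, 5.36 and 9.28 CPM. Receptor genes did not all go one way: Fzd6 was higher at P14 (ratio 4.50), 24 h (2.95) and 48 h (2.17), and Ror1 was higher in all 4 comparisons (2.97, 4.49, 3.70 and 3.31). In counts, 2 of 13 receptor genes were higher and 4 lower at 24 h, with 11.5% of all genes higher and 10.1% lower. At 48 h 2 were higher and 5 lower, Tspan12 the fifth (12.5% of all genes higher and 9.26% lower), at 96 h 1 and 2 (7.5% and 3.61%), and at P14 4 (Fzd3, Fzd6, Lrp5 and Ror1) and 3 of 14 (14.6% and 15.9%).

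Lgr5, itself a Wnt target, and Lrp5 did not share that fall. Lgr5 was at 5.03, 4.03, 6.24, 7.03 and 2.89 CPM, but its log2 ratio at 24 h turned from 0.63 to -0.36 in hepatocytes of 10 to 20% mitochondrial UMIs. Lrp5 was at 41.1, 16.6, 22.7, 18.0 and 14.9 CPM, high at P14 (ratio 2.48, 2.16 to 2.86). Depth differed between the hepatocyte groups, with median UMIs of 38913 at P14, 18557 in the control, 19550 at 24 h, 35360 at 48 h and 21935 after 96 h, and so did the median share of Alb, at 8.07%, 2.18%, 1.36%, 1.74% and 4.20%. The part of these in the receptor levels was not tested.

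**Figure D5:**
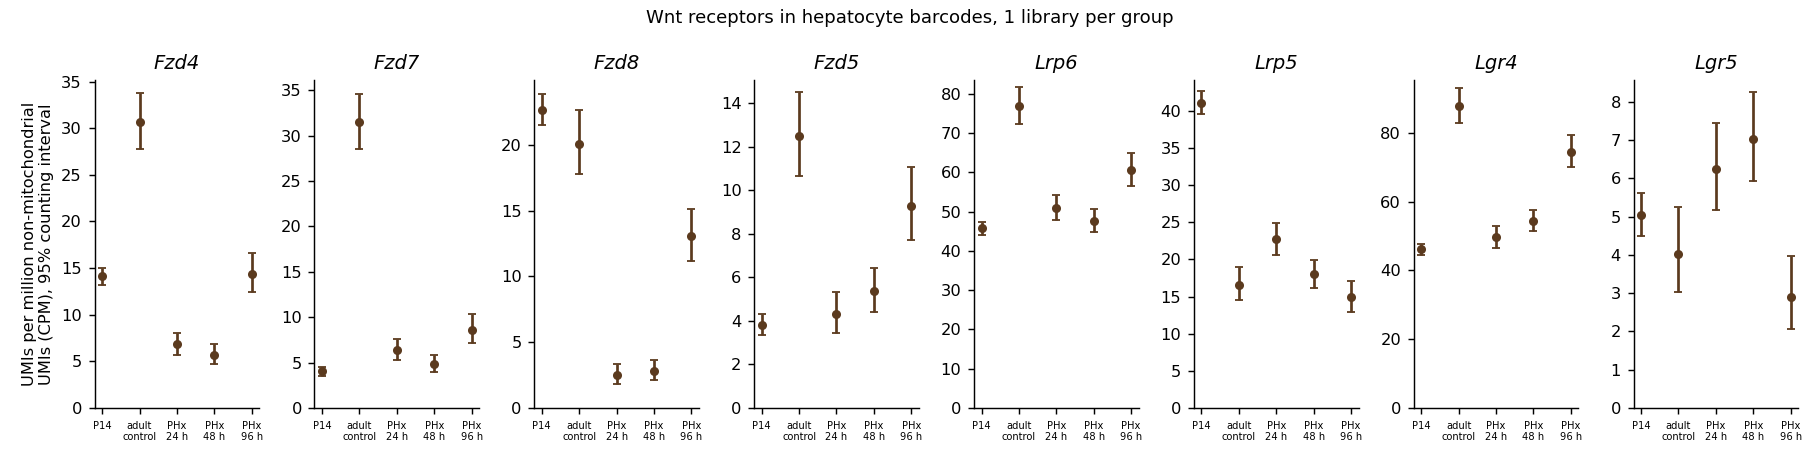
CPM of non-mitochondrial UMIs (y axis, a separate scale for each gene) of 8 Wnt and R-spondin receptor genes in hepatocyte barcodes of each library (x axis, 1 library per group), with exact 95% counting intervals. Fzd4, Fzd7, Fzd5, Lrp6 and Lgr4 are highest in the control, Fzd8 is low at 24 h and 48 h, and Lrp5 is highest at P14.

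Wnt response genes in hepatocytes, which were listed for their known dependence on the pathway, were mixed. At 24 h, 4 of 15 tested were higher (Axin2, Oat, Lect2 and Ccnd1) and 3 lower (Glul, Cyp2e1 and Slc1a2), beside 11.5% of all genes higher and 10.1% lower. Axin2, a feedback inhibitor of the pathway, stood at 3.76 CPM at P14, 2.32 in the control, 8.49 at 24 h, 3.11 at 48 h and 3.12 after 96 h, a ratio of 3.67 at 24 h (2.49 to 5.57). Glul, the glutamine synthetase of pericentral hepatocytes, went from 230 CPM in the control to 103 at 24 h, 159 at 48 h and 215 after 96 h, with 142 at P14. Cyp2e1, a pericentral cytochrome, stood at 2402, 2165, 681, 1077 and 1208 CPM from P14 to 96 h.

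Ccnd1, the cyclin of entry into the cell cycle, stood at 106, 25.3, 369, 141 and 101 CPM, a ratio of 14.6 at 24 h (13.1 to 16.3). Tbx3, a pericentral transcription factor, stood at 9.41, 13.5, 23.5, 13.4 and 10.8 CPM and passed 2-fold at no point. Notum, which inactivates Wnts outside the cell, stood at 25.2, 22.1, 27.2, 18.8 and 12.5 CPM. At 48 h 2 of the 15 response genes were higher (Lect2 and Ccnd1) and 2 lower (Cyp2e1 and Slc1a2), beside 12.5% and 9.26% of all genes. At 96 h Ccnd1 alone was higher, beside 7.5%. At P14, 3 were higher (Rhbg, Lect2 and Ccnd1) and 3 lower (Sp5, Oat and Slc1a2), near the 14.6% and 15.9% of all genes. In the intracellular relay, Tcf7 was the one gene higher in every comparison (ratio 2.11 at P14, 5.48 at 24 h, 3.29 at 48 h and 2.04 after 96 h), while Tcf7l2, another DNA-binding partner of beta-catenin, was lower at P14 (0.391) and 24 h (0.491). Gsk3a, Gsk3b and Lef1 were lower at P14, Dvl2 and Tcf7l1 at 24 h, and Tcf7l1 and Ctnnbip1 at 48 h. The brakes Znrf3 and Rnf43 passed 2-fold nowhere.

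A few further ligands and inhibitors differed in hepatocytes, most of them at low level. Wnt5a, a ligand best known for signalling without beta-catenin, stood at 1.53 CPM at P14, 0.373 in the control (5 UMIs), 1.53 at 24 h, 2.54 at 48 h and 0.668 after 96 h. It was thus at least 2-fold higher at P14 (ratio 4.10, 1.70 to 12.9), 24 h (4.11, 1.58 to 13.6) and 48 h (6.79, 2.73 to 21.8). Wif1, a secreted inhibitor that binds Wnts, had 356 UMIs at P14 (5.51 CPM) against 0 in the control, at least 24.6-fold higher with the control set at 3 counts. Sfrp4, another secreted Wnt binder, had 28 UMIs at P14 against 0, at least 1.93-fold higher, and Dkk3 had 35 against 1. Kremen1, a receptor for Dkk proteins, was lower at P14 (ratio 0.457, 0.360 to 0.584), as was Porcn, which attaches the lipid to Wnts (0.434, 0.253 to 0.769). The hepatocyte level of Wnt2 was 0.0957 to 0.299 CPM over the libraries, 2 to 11 UMIs in each.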

How the data were processed

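The deposited files hold counts of UMIs per gene and barcode, unfiltered, in 10x matrix form for 31053 genes and 6794880 listed barcodes per library. Per the file headers they were written by software version 3.0.2, and per the submitters' processing notes the tools were bcl2fastq 2.17.1.14, Cell Ranger and Seurat 3.1, with build mm10. Whether counting used strand or introns is not given in the sources used here. Libraries held 80927744 to 136110607 UMIs.

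Barcodes were classed by the rules in the text, and UMIs were summed per library and class over non-mitochondrial UMIs (CPM). Single levels have exact Poisson, shares exact binomial (Clopper-Pearson), and ratios exact conditional intervals at 95%. Where a count of 0 is given a limit, it is the share that 3 counts would make, unless named as the exact bound. Free RNA was the mean of the barcodes of rank 20001 to 60000 by UMIs. No doublet caller was run, and barcodes with markers of another class were left out in the narrowed set. Each group is 1 library, so no test was made and barcodes were not treated as replicates. Thinning drew UMIs without replacement.

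The members, gene lists and tests were chosen with earlier results of these data known. The 5 members were always named, listed Wnt genes with at least 20 UMIs over the libraries could be named, those past 2-fold first, and genes like a ligand were the 8 with the highest odds ratio. Genes of the other endothelial lists were named after their values were seen. Alternatives covered depth, marker, Alb and mitochondrial limits, scaling (TMM, median of ratios), free RNA and thinning depth. The code for the fold calls was checked on simulated counts. Python 3.11.15, numpy 2.4.6, scipy 1.17.1, pandas 2.3.3, matplotlib 3.10.9, R 4.3.3 and edgeR 4.0.16 (scaling factors) were used. The proteins of these genes were not analysed here.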

Additional observations from a re-analysis of the deposited data

How the results depend on the processing

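Of the results that answer a comparison, 417 alternative values stayed close to the reported one and 61 moved, and none of the 61 came with a test. No paired analysis was possible because each group is 1 library, and for the same reason no replicate could be left out. All values here are log2 ratios to the control unless a percentage or a gene count is given, and the cause of each shift was not tested.

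With Alb under 1%, the P14 values were 0.011 for Wnt2, 1.77 for Rspo3 and -0.87 for Fzd4, and Wnt2 at 96 h was -0.057. Without barcodes holding markers of another class, Wnt2 at P14 was 1.49. With equal weight per barcode, Wnt2 at 48 h was 2.44, Fzd4 was 1.72 at P14, 1.86 at 24 h and 1.87 at 48 h, and Lrp6 at P14 was 0.80. In the narrowed set with free RNA taken off gene and total (chosen after seeing the data), Wnt2 was 0.78 at 24 h, 1.11 at 48 h and -0.38 after 96 h. Per pan-endothelial UMIs (also chosen later), Wnt2 at 48 h was 1.20. Leaving out barcodes no deeper than empty droplets (chosen later too) moved none of the 20 member ratios out of its interval.

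In hepatocytes of 10 to 20% mitochondrial UMIs, Fzd4 was -0.83 at P14, -2.09 at 48 h and -1.49 after 96 h, Lrp6 at 96 h was -0.68, and Lgr5 at 24 h turned to -0.36. At P14, TMM gave -0.77 for Fzd4 and -0.40 for Lrp6, and median-of-ratios scaling -0.85 and -0.48. In endothelial barcodes TMM shifted every P14 ratio by -0.17.

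Shares thinned to 5000 UMIs were 69.2% for Wnt2 and 30.8% for Wnt9b at P14. In the control they were 0 for Wnt9b and Rspo3 (0 of 17 barcodes, which allows up to 17.6% by the limit of 3 counts), 52.9% for Fzd4 and 47.1% for Lrp6. At 24 h they were 65.1% for Wnt2, 37.2% for Wnt9b, 30.2% for Rspo3, 58.1% for Fzd4 and 27.9% for Lrp6. At 48 h Fzd4 was at 62.1% and Lrp6 at 48.3%. At 96 h Wnt2 was at 47.4%, Wnt9b at 10.5%, Rspo3 at 21.1%, Fzd4 at 52.6% and Lrp6 at 68.4%, and without thinning Lrp6 was at 20.6%. Without thinning, Wnt2 was in 100% of P14 barcodes with Wnt9b and in 100% of those with Rspo3 at 48 h and 96 h.

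Genes past 2-fold numbered 2385, 1536, 1247 and 991 in endothelial barcodes (P14, 24 h, 48 h and 96 h). They were 1105, 718, 594 and 413 with a minimum of 50 UMIs, 7086, 5196, 5026 and 4941 with none, and 1305 at P14 in the narrowed set. In hepatocytes they were 3830, 2461, 2531 and 1243, against 7657, 5558, 5522 and 4180 with no minimum and 1399, 936, 977 and 319 with 5 CPM added.

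Not run for want of UMIs or barcodes were Lgr5 and Fzd6 at 96 h in hepatocytes of 10 to 20% mitochondrial UMIs, and Wnt2 among thinned 96 h barcodes with Wnt9b. The endothelial sums rest on 39 barcodes at P14 and 66 at 48 h, and the control, on which every ratio rests, had the fewest endothelial UMIs of the 5 libraries (257880 non-mitochondrial).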
